A study of Mus musculus with 16 samples.

Results

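The genes of the mitochondrial ribosome were followed across mouse livers with and without peroxisome proliferator-activated receptor α (PPARα), a ligand-activated transcription factor of hepatic lipid metabolism, and with and without its synthetic agonist Wy14643. Members were all genes whose symbol starts with Mrpl (named for the large subunit) or Mrps (named for the small subunit) followed by a number. Each also had to have at least 1 probe set annotated to it alone. This gave 76 genes, 47 Mrpl and 29 Mrps, with 156 probe sets, out of 18193 genes and 45037 probe sets on the array. Large and small subunit below mean this split by symbol, and where each protein sits in the ribosome was not checked. Each gene was read from its brightest probe set over the 16 arrays, and 42 members had more than 1. Mrpl30 and Mrpl53 had only probe sets shared with another gene and were not members. The rule used symbols and mean intensity only and no difference between groups.

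Liver RNA of 16 male mice aged 12 to 20 weeks was hybridized, 1 mouse per array, to an Affymetrix whole-genome mouse array. The 4 groups of 4 mice were knockout on Wy14643, knockout on control food, wild type on Wy14643 and wild type on control food. Wy14643 was given as 0.1% of the food by weight for 5 days. The knockout is a germline null for PPARα on the 129S4/SvJae substrain, and the wild type is 129S1/SvImJ, so genotype and substrain cannot be told apart. All levels below are log2 of the deposited intensity, differences are on the same log2 scale with the standard error (SE) of the fit, and a gene was called changed at an adjusted p under 0.01 and a fold over 1.5 (limma, Benjamini-Hochberg over all probe sets, two-sided, on 16 arrays). The level of one probe set cannot be set against that of another. RNA came from whole liver, so fewer cells of a type and less RNA per cell cannot be told apart.

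The mitochondrial ribosome translates the few proteins encoded by mitochondrial DNA, all of them subunits of the oxidative phosphorylation complexes. Its RNAs come from the mitochondrial genome, whereas every protein of its large and small subunit is encoded in the nucleus, made in the cytosol and imported. Part of these proteins have bacterial homologues and the others are particular to mitochondria, where they enlarged the protein shell of the ribosome. Their promoters are often reported to hold sites for nuclear respiratory factor 1 (NRF1), for GA-binding protein (an ETS factor) and for YY1, and PPARα itself binds a direct repeat of a hexamer with 1 base between (DR1). Liver is rich in mitochondria, and Wy14643 is known in rodents for peroxisome proliferation, liver growth and fatty acid oxidation.

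RefSeq promoter windows (GRCm38.p6), running from 250 bases before to 50 bases after a transcript start, were found for 67 of the 76 members, in 73 windows. Mrpl2, Mrpl48 and Mrps16 had several windows, and each window was counted on its own. The 4 windows printed here are those of the members with the largest differences that had a window: Mrpl45 and Mrpl17 from the large subunit, Mrps36, and Mrps31, which moved the other way. They lie at chr11:97315466-97315765 on the plus strand (Mrpl45), chr7:105811038-105811337 on the minus strand (Mrpl17), chr13:100744610-100744909 on the minus strand (Mrps36) and chr8:22411090-22411389 on the plus strand (Mrps31). Each is written 5′ to 3′ along its gene, and capitals mark every match, on either strand, to one of 5 motifs.

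Mrpl45: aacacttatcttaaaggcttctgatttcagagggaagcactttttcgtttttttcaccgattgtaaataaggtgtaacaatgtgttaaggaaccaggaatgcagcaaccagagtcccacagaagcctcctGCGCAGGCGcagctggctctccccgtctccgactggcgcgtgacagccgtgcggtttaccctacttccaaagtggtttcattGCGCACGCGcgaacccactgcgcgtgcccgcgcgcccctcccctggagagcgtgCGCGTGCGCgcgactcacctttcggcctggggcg
Mrpl17: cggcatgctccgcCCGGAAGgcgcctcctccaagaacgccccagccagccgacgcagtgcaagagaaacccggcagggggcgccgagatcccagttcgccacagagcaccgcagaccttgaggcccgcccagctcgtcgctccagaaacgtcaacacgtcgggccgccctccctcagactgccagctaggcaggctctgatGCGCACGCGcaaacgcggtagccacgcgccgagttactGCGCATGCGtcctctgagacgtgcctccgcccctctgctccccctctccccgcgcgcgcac
Mrps36: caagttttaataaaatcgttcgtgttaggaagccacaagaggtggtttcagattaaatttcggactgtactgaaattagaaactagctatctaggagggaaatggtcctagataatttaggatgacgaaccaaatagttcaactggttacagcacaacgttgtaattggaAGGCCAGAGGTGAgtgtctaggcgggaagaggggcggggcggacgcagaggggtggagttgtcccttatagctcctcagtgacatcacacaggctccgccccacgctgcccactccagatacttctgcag
Mrps31: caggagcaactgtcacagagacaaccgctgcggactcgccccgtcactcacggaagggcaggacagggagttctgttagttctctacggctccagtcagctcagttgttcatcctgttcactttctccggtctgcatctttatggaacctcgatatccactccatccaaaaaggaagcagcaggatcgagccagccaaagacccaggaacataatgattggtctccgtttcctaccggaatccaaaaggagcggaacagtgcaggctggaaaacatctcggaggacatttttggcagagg

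In Mrpl45 the capitals are 3 matches to the NRF1 letters GCGCANGCG, with first bases at -120, -38 and 17, counted from the first transcribed base as 1. In Mrpl17 they are 2 NRF1 matches at -49 and -11 and 1 match to the ETS letters CCGGAAG at -237. In Mrps36 they are 1 DR1 match at -80, meaning AGGTCA as a direct repeat with 1 base between and at most 2 mismatches over both hexamers. The Mrps31 window held none of the 5 motifs. A match is a run of letters and not a bound site, and its absence says only that these letters are not in the window.

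Over all members the NRF1 letters stood in 15 of 73 windows (20.5%), against 6.25% of all 32851 windows in the table and 8.58% of those of protein-coding genes. The ETS letters stood in 25 windows (34.2%), against 8.86% of all and 11.6% of protein-coding windows. The YY1 letters AAGATGGC stood in 12 (16.4%), against 2.75% and 3.05%. The family thus carried these 3 motifs more often than promoters at large, by description and without a test. The E-box CACGTG stood in 7 windows (9.59%, against 7.15% of all), several of which are overlapping windows of Mrpl2. The DR1 stood in 2 windows (2.74%, against 3.86% of all), those of Mrps36 and Mrpl11. The ETS and YY1 letters can run into each other, so that 1 stretch may count for both.

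As a check of the labels, Ppara at its brightest probe set averaged 9.63 ± 0.30 in knockout on Wy14643, 9.29 ± 0.39 in knockout on control food, 10.78 ± 0.06 in wild type on Wy14643 and 9.92 ± 0.13 in wild type on control food (SD, n = 4 each). Knockout minus wild type was -1.15 on Wy14643 (adjusted p = 5.1e-05) and -0.63 on control food (adjusted p = 0.140). The other 2 Ppara probe sets were called lower in knockout on both foods. Signal remained in the knockout, and the probes could not be placed against the deleted part, so the check is a weak one. Array medians lay between 2.15 and 2.24, and correlations over all probe sets were 0.987 to 0.995 within groups and 0.961 to 0.993 between groups. Of the 76 members 75 had a mean level above 6, as had 5170 of the 18193 genes, so shares among those genes are given beside shares over all genes.

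Wy14643 in wild-type liver moved the family upward by a small amount, and a few members by much more. The median member was 0.28 higher on Wy14643 than on control food, a 1.22-fold difference, with 0.27 for the large and 0.29 for the small subunit, against -0.03 over all genes. Of 76 members, 63 had a positive difference, where 45.7% of all genes did (46.8% of those with a mean above 6). Of the members 6 were called higher, Mrpl45, Mrpl17, Mrpl54, Mrps36, Mrps9 and Mrpl55, and 1 was called lower, Mrps31. That is close to or below the background, since 7.72% of all genes (12.4% of those with a mean above 6) were called higher and 6.74% (15.9%) lower.

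With no fold required, the share of members that passed was above that of all genes in the upward direction. At an adjusted p under 0.01 with no fold required, 28 members were higher and 4 lower, against 9.91% and 9.07% of all genes (18.8% and 22.6% of those with a mean above 6). The 28 were split as 17 of 47 in the large and 11 of 29 in the small subunit. In 49 members all 4 Wy14643 livers were above all 4 controls, and in 9 all were below, where the same held for 14.4% and 14.7% of all genes (27.8% and 31.6% of those with a mean above 6). The plot of both responses shows the order of the members.

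**Figure D1:**
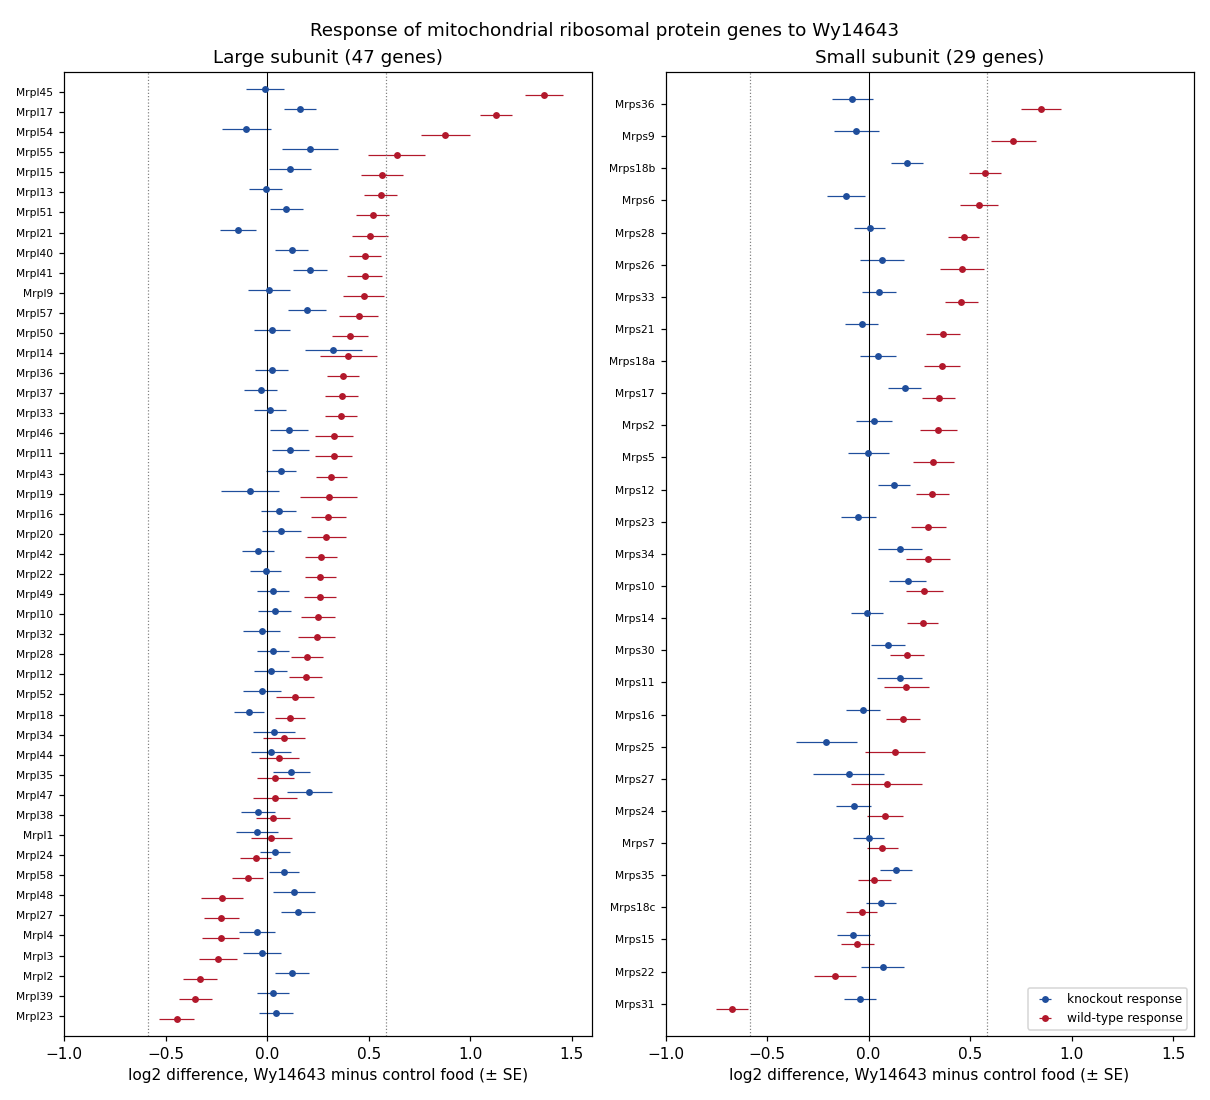
Fitted log2 difference, Wy14643 minus control food, of each of the 47 large-subunit genes (left) and 29 small-subunit genes (right), in knockout (blue) and wild type (red), n = 4 mice per group. Bars are ± 1 SE and dotted lines mark a fold of 1.5. Wild-type points run from 1.36 for Mrpl45 to -0.67 for Mrps31, and knockout points lie between -0.21 and 0.33.

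Mrpl45 had the largest response of the family. Its protein sits near the exit of the peptide tunnel, where the ribosome meets the inner membrane. The 4 livers on Wy14643 read 7.47, 7.40, 7.28 and 7.42, against 5.91, 6.18, 6.0 and 6.03 on control food. No liver on Wy14643 came near the highest control. The difference was 1.36 ± 0.09 (2.57-fold, adjusted p = 5.99e-09). The gene had a single probe set.

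Mrpl17, the homologue of bacterial ribosomal protein L17, read 10.32, 10.28, 10.27 and 10.44 on Wy14643, against 9.17, 9.21, 9.29 and 9.14 on control food. The groups did not overlap, and each was narrow. The difference was 1.13 ± 0.08 (2.18-fold, adjusted p = 6.26e-09). Its other 2 probe sets lay near or below the array medians, with means of 2.10 and 1.35, and gave 0.00 and 0.28 with no call.

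Mrpl54, a large-subunit protein particular to mitochondria, read 7.51, 7.26, 7.46 and 7.39 on Wy14643, against 6.54, 6.46, 6.59 and 6.53 on control food. All treated livers were above all controls, with a difference of 0.88 ± 0.12 (1.84-fold, adjusted p = 2.88e-05). A second, dim probe set with a mean of 1.62 gave 0.03. Mrpl55, also named for the large subunit, read 6.97, 6.78, 6.98 and 6.76, against 6.43, 5.92, 6.21 and 6.37. The difference was 0.64 ± 0.14 (1.56-fold, adjusted p = 0.00255). Without wild type on control food replicate 2, the lowest liver, the difference was 0.53 with an adjusted p of 0.0118.

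Of the small subunit, Mrps36 and Mrps9 were called higher. Mrps36 was first named as a ribosomal protein and is now known as KGD4, an adaptor of the 2-oxoglutarate dehydrogenase complex in the citric acid cycle, so its place in the ribosome is in doubt. It read 8.45, 8.34, 8.29 and 8.58 on Wy14643, against 7.63, 7.41, 7.53 and 7.70 on control food. The groups did not overlap, and the difference was 0.85 ± 0.10 (1.8-fold, adjusted p = 4.56e-06). Mrps9, the homologue of bacterial S9, read 6.72, 6.92, 6.79 and 6.67, against 5.81, 6.07, 6.21 and 6.16. Its difference was 0.71 ± 0.11 (1.64-fold, adjusted p = 0.000124), and its groups did not overlap either. The other 3 Mrps9 probe sets were dimmer and gave 0.19, 0.41 and 0.20, none of them called.

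Mrps31 was the 1 member called lower. It encodes a small-subunit protein particular to mitochondria, described earlier as the autoantigen Imogen 38. The livers on Wy14643 read 7.61, 7.52, 7.51 and 7.61, against 8.22, 8.20, 8.31 and 8.21 on control food. The groups did not overlap, and the difference was -0.67 ± 0.08 (1.6-fold lower, adjusted p = 4.03e-06). A second probe set near the array median, with a mean of 1.82, gave 0.22 with no call. The next most negative members were in the large subunit and stayed under the fold required. Mrpl23, a homologue of bacterial L23, read 8.42, 8.43, 8.32 and 8.56, against 8.87, 8.88, 8.94 and 8.84, a difference of -0.45 ± 0.08 (adjusted p = 0.000716). Mrpl39, particular to mitochondria, read 9.63, 9.61, 9.61 and 9.58, against 9.97, 9.91, 10.01 and 9.95, a difference of -0.35 ± 0.08 (adjusted p = 0.00316). With Mrpl2 (-0.33 ± 0.08, adjusted p = 0.00784), a homologue of bacterial L2 that was singled out after its value was seen, these are the 4 members lower at an adjusted p under 0.01.

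**Figure D2:**
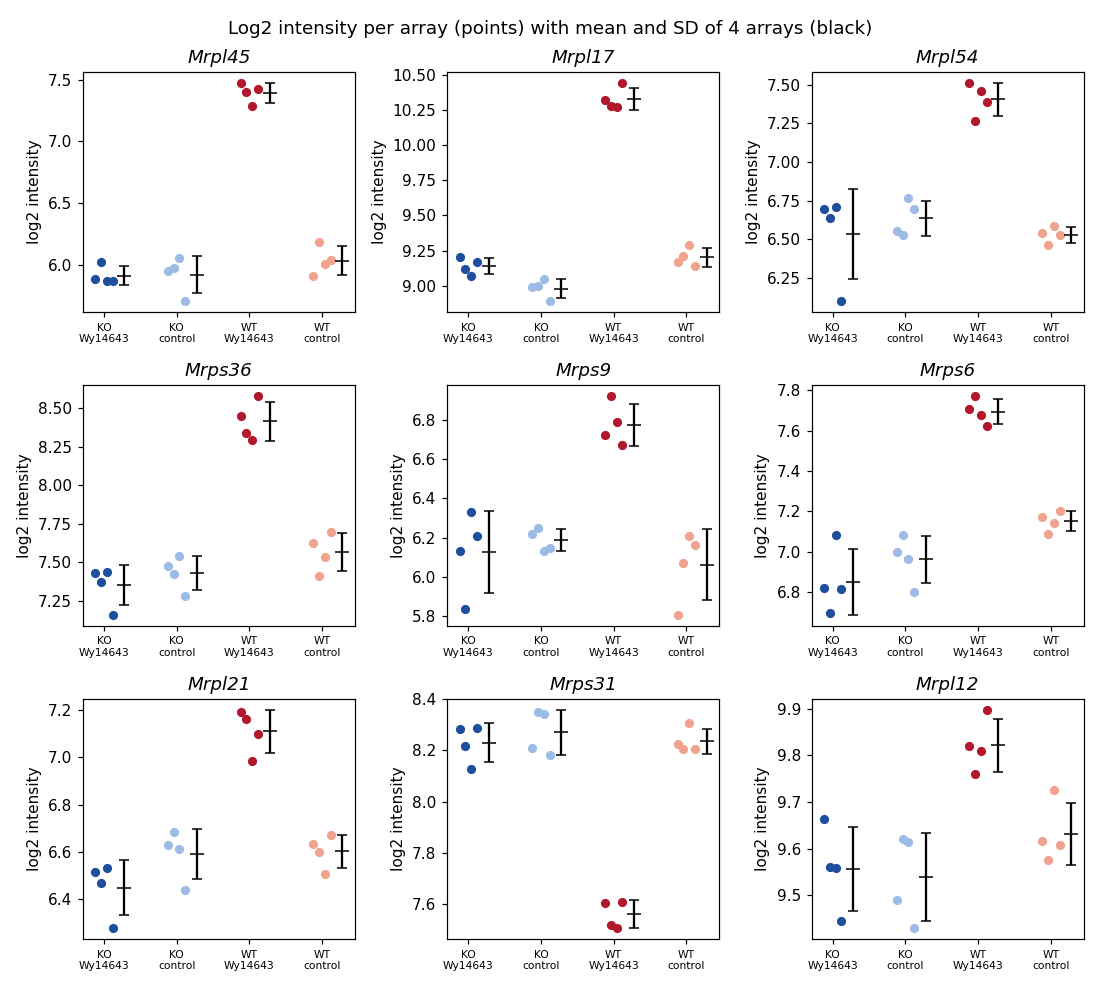
Log2 intensity in each liver (points) of 9 members, with the mean and SD of 4 arrays in black, for knockout on Wy14643, knockout on control food, wild type on Wy14643 and wild type on control food. Each panel has its own axis, which does not start at 0. The wild-type livers on Wy14643 stand above the other 3 groups in 8 panels and below them for Mrps31, where they read 7.51 to 7.61.

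Several members just under the fold had more than 1 bright probe set. Mrpl13, a homologue of bacterial L13, gave 0.56 ± 0.08 at its brightest probe set (adjusted p = 4.94e-05), and 2 others, with means of 8.56 and 6.37, gave 0.71 and 0.65 and were called. Mrps6, a homologue of bacterial S6, gave 0.54 ± 0.09 at the brightest (adjusted p = 0.000281) and 0.63 at the second, which was called. Mrps6 overlaps Slc5a3 in the RefSeq table, and which transcripts its probe sets detect was not tested. Mrpl15, singled out after its values were seen, gave 0.57 ± 0.11 at the brightest of 8 probe sets, and 3 of the others, with means of 8.83, 8.83 and 8.48, gave 0.64, 0.64 and 0.84 and were called. No member had probe sets called in opposite directions. With the mean of all probe sets of a gene in place of the brightest, Mrpl17 (0.47), Mrpl54 (0.45), Mrps9 (0.38) and Mrps31 (-0.23) were no longer called.

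Another 10 members had been listed for their known roles, and none of them was called in wild type. Mrps12, which helps set decoding accuracy, had a difference of 0.31 ± 0.08 (adjusted p = 0.00845), the only one of these under 0.01. Mrpl11, of the stalk base, had 0.33 ± 0.09 (adjusted p = 0.0165), and Mrps5, whose level has been linked to lifespan in mouse strains, 0.32 ± 0.10 (adjusted p = 0.0328). Mrpl12, the stalk protein also reported to bind the mitochondrial RNA polymerase, read 9.82, 9.76, 9.81 and 9.90 on Wy14643, against 9.62, 9.57, 9.73 and 9.61 on control food. Its groups did not overlap, but the difference was only 0.19 ± 0.08 (adjusted p = 0.121). Mrps34, Mrps16 and Mrpl44, each mutated in human mitochondrial disease, had 0.29, 0.17 and 0.06, and Mrps7 had 0.07. Mrps22, another human disease gene, had -0.17 ± 0.10 (adjusted p = 0.329), and Mrpl3 had -0.24 ± 0.09 (adjusted p = 0.0835).

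Members with and without a bacterial counterpart by number had like medians. The 43 with a number that also exists in the bacterial ribosome (Mrpl up to 36, Mrps up to 21, a split by symbol chosen after values were seen) had a median of 0.27, and the other 33 had 0.29. At an adjusted p under 0.01, 14 of the 43 and 14 of the 33 were higher. Of the 28 members higher at that threshold, 24 had promoter windows, which held the NRF1 letters in 8 (33.3%) and the ETS letters in 12 (50%). The other members had 49 windows for 43 genes, which held them in 7 (14.3%) and 13 (26.5%). Those windows belonged to 7 and 13 different genes. Mrpl2, Mrpl48 and Mrps16, with several windows each, were all among the other members. Counting by window thus gave lower NRF1 and ETS shares there than counting by gene. The shares for YY1 were 16.7% and 16.3%. This split follows the measured response and was given no test.

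The large and the small subunit stood close together in every liver. After subtracting each probe set's mean over the 16 arrays, the median large-subunit gene stood at -0.13 to -0.01 in knockout on Wy14643, at -0.15 to -0.07 in knockout on control food, at 0.22 to 0.26 in wild type on Wy14643 and at -0.06 to 0.02 in wild type on control food. The median small-subunit gene stood at -0.10 to -0.03, -0.22 to -0.07, 0.16 to 0.30 and -0.07 to 0.02 in the same order of groups. Wild type on Wy14643 was thus apart from the other 3 groups in both subunits. Large minus small per liver averaged 0.00 ± 0.04, 0.01 ± 0.04, 0.01 ± 0.05 and 0.00 ± 0.02 (SD, n = 4 each), again in that order. The medians over all genes moved by no more than 0.03 in any liver. The spread of the single members between mice of a group was small, with a median SD of 0.12 in knockout on Wy14643, 0.10 in knockout on control food and 0.07 in each wild-type group.

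**Figure D3:**
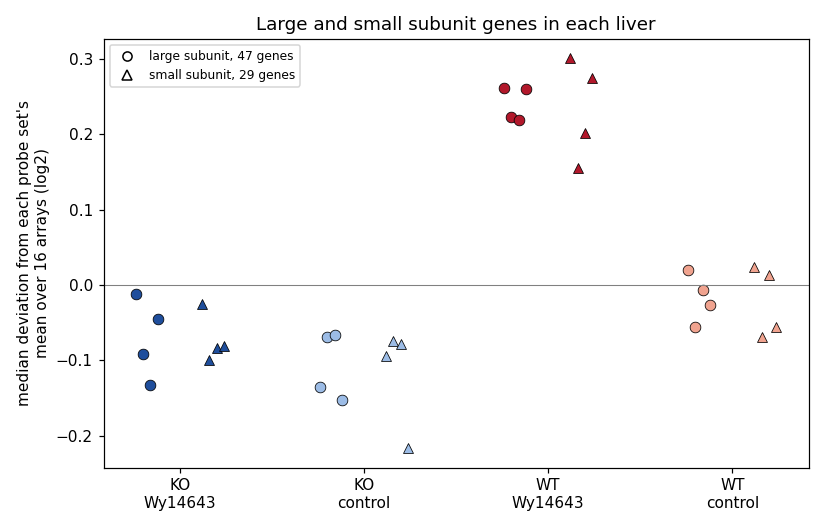
Median deviation of the 47 large-subunit (circles) and 29 small-subunit genes (triangles) from each probe set's mean over 16 arrays, in log2, 1 point per liver, for the 4 groups. Large-subunit points of wild type on Wy14643 lie at 0.22 to 0.26 and those of the other 3 groups between -0.15 and 0.02.

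Markers of other cell types moved with Wy14643 in wild type, and their part in these results was not tested. Of 15 Kupffer cell and macrophage markers 11 were called lower, with a summed intensity of 996 to 1277 on Wy14643, against 1770 to 2060 on control food. Of 15 stellate cell markers 6 were lower (sum 2277 to 2521, against 3457 to 3771), and of 15 endothelial markers 3 were lower and 1 higher (1349 to 1444, against 1705 to 1897). Of 12 hepatocyte markers 3 were lower (62055 to 68778, against 83740 to 87390), and of 5 erythroid markers 1, Alas2 (106 to 142, against 512 to 615). The 6 cholangiocyte and 10 lymphocyte markers had no call, with sums of at most 28.9 and 39.6 on Wy14643. Of 17 proliferation markers 13 were higher (1215 to 2735, against 547 to 627). The hepatocyte sums were 62055 or more in every liver of the 4 groups.

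Most lists of other genes of mitochondrial gene expression also had positive medians in wild type. Protein import carried the largest share of calls, with 14 of 34 genes higher, none lower and a median of 0.47. Its leading genes were Grpel2 (2.24 ± 0.19), a nucleotide exchange factor of the matrix chaperone, Timm8a1 (1.07 ± 0.08), an intermembrane space chaperone, Dnajc15 (1.04 ± 0.08), a cochaperone of the import motor, and Chchd4 (1.01 ± 0.13), which oxidizes imported proteins. All 4 had adjusted p-values of 1.28e-05 or less. Ribosome assembly had 4 of 29 genes higher and 1 lower with a median of 0.22: the RNA helicase Ddx28 (1.61 ± 0.17), the pseudouridine synthase Trub2 (1.47 ± 0.13), Mterf4 (1.43 ± 0.12), which binds ribosomal RNA, and the GTPase Gtpbp10 (0.93 ± 0.11) were higher, and Mettl17 (-0.81), named after its value was seen, was lower. Translation factors had 4 of 23 higher and 0 lower with a median of 0.35, namely the glutamyl-tRNA amidotransferase subunits Qrsl1 (1.36 ± 0.15) and Gatb (0.95 ± 0.10), the tRNA modifier Trit1 (0.72 ± 0.12) and the elongation factor Tsfm (0.62 ± 0.16).

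Mitochondrial DNA transcription and maintenance had 4 of 22 higher and 0 lower, with a median of 0.22: Atad3a (1.27 ± 0.10), Hsd17b10 (1.03 ± 0.07), a part of mitochondrial RNase P, and the transcription factors Tfam (0.75 ± 0.10) and Tfb2m (0.64 ± 0.09). Of 16 synthetases Ears2, which charges glutamate tRNA, was called (1.38 ± 0.15), with a median of 0.12. Of 4 ribosomal proteins with other symbols Ptcd3 was called (0.65 ± 0.08), with a median of -0.05. Nuclear-encoded oxidative phosphorylation genes had 4 of 58 higher and 0 lower, Ndufb3 (1.0 ± 0.08), Cycs (0.80 ± 0.08), Uqcr10 (0.70 ± 0.12) and Ndufa5 (0.60 ± 0.08), with a median of 0.25 close to that of the ribosome. Cytosolic ribosomal proteins had 2 of 48 higher and 0 lower, Rpl14 (0.88 ± 0.18) and Rpl22l1 (0.71 ± 0.10), and a median of 0.09. The shares called higher among the synthetases, oxidative phosphorylation and cytosolic ribosomal genes were below the 7.72% of all genes called higher. The median of the cytosolic ribosome was below that of the mitochondrial one, by description, whereas nucleolar biogenesis genes had 7 of 40 higher and 2 lower and a median of 0.37, led by Nhp2 (1.30 ± 0.10). Of 16 regulators Myc (2.40 ± 0.39) and Esrrg (1.18 ± 0.23) were called higher and Gabpb2 (-0.87 ± 0.16) lower. Myc, Esrrg, Ears2 and Rpl14 were dim on control food, at means of 3.49, 2.86, 3.64 and 2.85, so their differences rest on low levels. Among the genes of the factors behind the promoter motifs, Nrf1 had -0.08, Gabpa 0.17 and Yy1 0.05. These 3 were not called and are named here for their motifs. Gabpb2, called lower as given above, is also a gene of GA-binding protein.

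**Figure D4:**
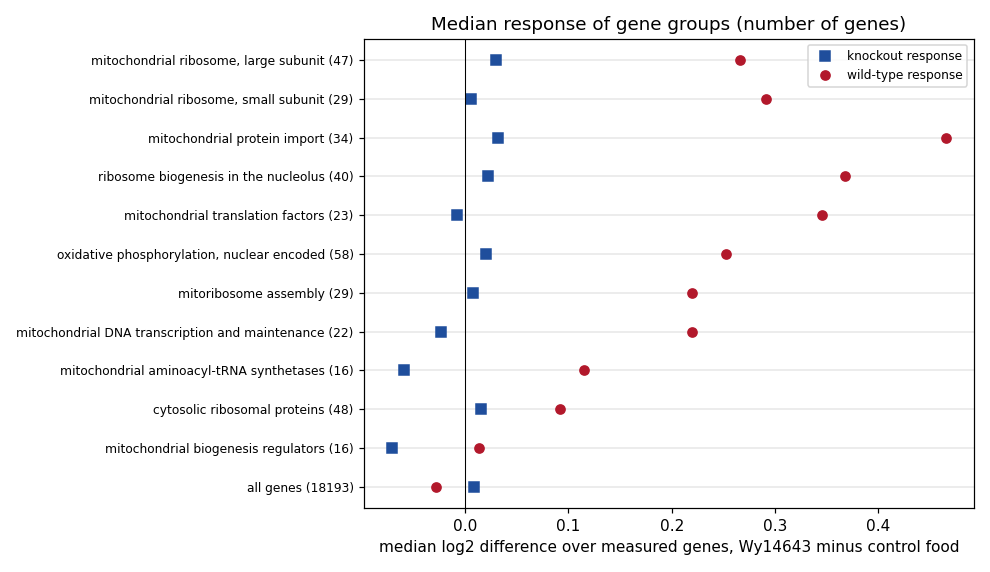
Median log2 difference, Wy14643 minus control food, over the measured genes of 9 pathway lists, both subunits and all genes (number of genes in brackets), in knockout (squares) and wild type (circles), without the list of 4 ribosomal proteins with other symbols. Among the sets drawn, wild-type medians run from 0.47 for protein import down to -0.03 for all genes, and knockout medians lie between -0.07 and 0.03.

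The comparison the study was built on, knockout against wild type with both on Wy14643, gave the mirror image, and it shares the treated wild-type livers with the response above, so the 2 are not independent. The median member was 0.34 lower in knockout (-0.34 for the large and -0.30 for the small subunit), against 0.04 over all genes. Of 76 members 11 were called lower and 1 higher, 7 and 0 in the large and 4 and 1 in the small subunit, where 8.12% of all genes (13.5% of those with a mean above 6) were called lower and 7.13% (16%) higher. At an adjusted p under 0.01 with no fold required, 35 were lower and 2 higher, against 10.4% and 9.73% of all genes (20.3% and 23.2% of those with a mean above 6). In 45 members all knockout livers were below all wild-type livers and in 6 above, where 13.9% of all genes were in each direction (27.0% and 28.3% of those with a mean above 6).

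Mrpl45 read 5.88, 6.02, 5.87 and 5.87 in knockout, against 7.47, 7.40, 7.28 and 7.42 in wild type, a difference of -1.48 ± 0.09 (adjusted p = 1.68e-09). Mrpl17 read 9.20, 9.12, 9.07 and 9.17 in knockout, against 10.32, 10.28, 10.27 and 10.44 in wild type, a difference of -1.19 ± 0.08 (adjusted p = 2.8e-09). Mrps36 read 7.43, 7.37, 7.44 and 7.16 in knockout, against 8.45, 8.34, 8.29 and 8.58 in wild type, a difference of -1.06 ± 0.10 (adjusted p = 2.6e-07). In these 3 genes the treated knockout livers lay at or somewhat below the levels of wild type on control food, and the genotypes did not overlap. Mrpl54 read 6.69, 6.64, 6.71 and 6.10 in knockout, against 7.51, 7.26, 7.46 and 7.39 in wild type, with knockout replicate 4 apart from the rest and a difference of -0.87 ± 0.12 (adjusted p = 2.79e-05). Mrps31 turned the other way, with 8.28, 8.22, 8.13 and 8.29 in knockout, against 7.61, 7.52, 7.51 and 7.61 in wild type, 0.67 ± 0.08 higher in knockout (adjusted p = 4.01e-06).

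Another 7 members were called lower in knockout. Mrps6 read 6.82, 6.69, 7.08 and 6.81, against 7.71, 7.77, 7.68 and 7.62 in wild type, a difference of -0.84 ± 0.09 (adjusted p = 2.02e-06), and its second probe set gave -1.04. Mrpl21, a homologue of bacterial L21, read 6.51, 6.47, 6.53 and 6.28, against 7.19, 7.16, 6.98 and 7.10 in wild type, a difference of -0.66 ± 0.09 (adjusted p = 1.93e-05). Its other 2 probe sets, with means of 2.38 and 2.22, gave 0.14 and -0.04, and with the mean of all 3 the difference was -0.19 (adjusted p = 0.107). Mrpl13 differed by -0.65 ± 0.08 (adjusted p = 8.15e-06), with 3 of its 4 probe sets called. In these 3 genes no knockout liver reached the lowest wild-type liver. Mrps9 differed by -0.65 ± 0.11 (adjusted p = 0.000292), and without knockout on Wy14643 replicate 2, its lowest liver, by -0.55 (adjusted p = 0.00114), under the fold required. Mrpl40, whose human gene lies in the region deleted in DiGeorge syndrome, read 7.91, 7.82, 7.82 and 7.80, against 8.50, 8.38, 8.52 and 8.52 in wild type (-0.64 ± 0.08, adjusted p = 9.91e-06). Mrpl36, a homologue of the small bacterial L36, differed by -0.62 ± 0.08 (adjusted p = 1.34e-05) and Mrps26, a small-subunit protein named beyond the first 10 after its value was seen, by -0.60 ± 0.11 (adjusted p = 0.000487). The Mrps26 call ended without knockout on Wy14643 replicate 4 (-0.54) and without wild type on Wy14643 replicate 1 (-0.53), both under the fold required. With the mean of all probe sets, Mrpl13 (-0.55), Mrpl54 (-0.37), Mrps9 (-0.35), Mrpl17 (-0.32), Mrps26 (-0.27), Mrpl21 (-0.19) and Mrps31 (0.25) were not called. The fold required fell within a run of close values, as Mrpl41, singled out after its value was seen, had -0.56 ± 0.08 (adjusted p = 7.43e-05) and was not called.

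Of the members listed for their roles, Mrpl11 had -0.47 ± 0.09 (adjusted p = 0.000953) and Mrps16 -0.36 ± 0.08 (adjusted p = 0.00413), both under the fold required. The other 8 lay between -0.34 for Mrps5 and 0.11 for Mrps22, with adjusted p-values above 0.02. In the pathway lists, import again had 14 of 34 genes called, all lower in knockout, with a median of -0.52. Translation factors had 5 of 23 lower (Qrsl1, Gatb, Trit1 and, named after their values were seen, Guf1 and Slirp) and none higher. Oxidative phosphorylation had 6 of 58 lower and none higher, and cytosolic ribosomal proteins 1 of 48 lower, Rpl14. Mitochondrial DNA transcription and maintenance had 3 of 22 lower and none higher. Other lists had calls both ways. Ribosome assembly had 4 of 29 lower and 2 higher, and nucleolar biogenesis 4 of 40 lower and 2 higher. Synthetases had 2 of 16 lower and 1 higher, and regulators 3 of 16 lower and 1 higher. Of 4 ribosomal proteins with other symbols none was called. Among all genes 8.12% were called lower and 7.13% higher (13.5% and 16% of those with a mean above 6). The shares called lower in oxidative phosphorylation, ribosome assembly, mitochondrial DNA, nucleolar and synthetase genes were close to this background. That of the cytosolic ribosomal proteins was below it. These shares were compared by description and without a test. Kupffer cell markers ran the other way from the family, with 10 of 15 higher in knockout (sum 1759 to 2412, against 996 to 1277 in wild type). So did stellate cell markers, with 8 of 15 higher (3770 to 4327, against 2277 to 2521). Of 12 hepatocyte markers 2 were higher (79550 to 83133, against 62055 to 68778), of 15 endothelial markers 2 were higher and 1 lower (1693 to 1936, against 1349 to 1444), and of 5 erythroid markers 1 was higher (658 to 783, against 106 to 142). Of 17 proliferation markers 12 were lower (580 to 656, against 1215 to 2735). Their part in the result was not tested.

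On control food the genotypes differed little, but mostly in 1 direction. No member was called in either direction, where 0.401% of all genes were called lower and 0.143% higher in knockout (0.986% and 0.213% of those with a mean above 6). The lowest adjusted p was 0.206, for Mrpl40. At an unadjusted p under 0.05 there were 12 members lower and 0 higher, against 4.96% and 4.64% of all genes (8.16% and 7.0% of those with a mean above 6). Still, 65 of 76 members had a negative difference, where 50.3% of all genes did (48.4% of those with a mean above 6). In 14 members all knockout livers were below all wild-type livers and in 0 above. The same held for 4.18% and 3.99% of all genes (8.94% and 7.27% of those with a mean above 6). The median was -0.09, -0.08 for the large and -0.10 for the small subunit, against -0.00 over all genes. No marker list had a call on control food. The erythroid sum still separated the genotypes, at 689 to 782 in knockout and 512 to 615 in wild type. The proliferation sum was 531.1 to 547.0 in knockout and 547.2 to 626.7 in wild type, with almost no gap. Their part in the result was not tested.

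The members with the most negative values were not those that led on Wy14643, though Mrpl40 and Mrpl36 were called there too. The order of all members was not compared. Mrpl14 had -0.39 ± 0.14 (adjusted p = 0.408), Mrpl41 -0.29 ± 0.08 (adjusted p = 0.222), Mrpl40 -0.28 ± 0.08 and Mrpl36 -0.27 ± 0.08 (adjusted p = 0.233), all named here after their values were seen except Mrpl40 and Mrpl36. Mrpl40 read 7.81, 7.82, 7.70 and 7.55 in knockout, against 8.01, 8.02, 8.02 and 7.94 in wild type, with no overlap. Mrpl45, at the head of the family on Wy14643, read 5.95, 5.97, 6.05 and 5.70 in knockout, against 5.91, 6.18, 6.0 and 6.03 in wild type, with overlap and a difference of -0.11 ± 0.09 (adjusted p = 0.832). Mrpl54 and Mrps9 had 0.11 and 0.12, and Mrps31 0.04. Mrpl36 and Mrpl40 thus had negative values on both foods, those on control food not past the test, whereas Mrpl54 and Mrps9 had small values of the opposite sign to those on Wy14643. The plot of both genotype differences sets the 2 foods side by side.

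**Figure D5:**
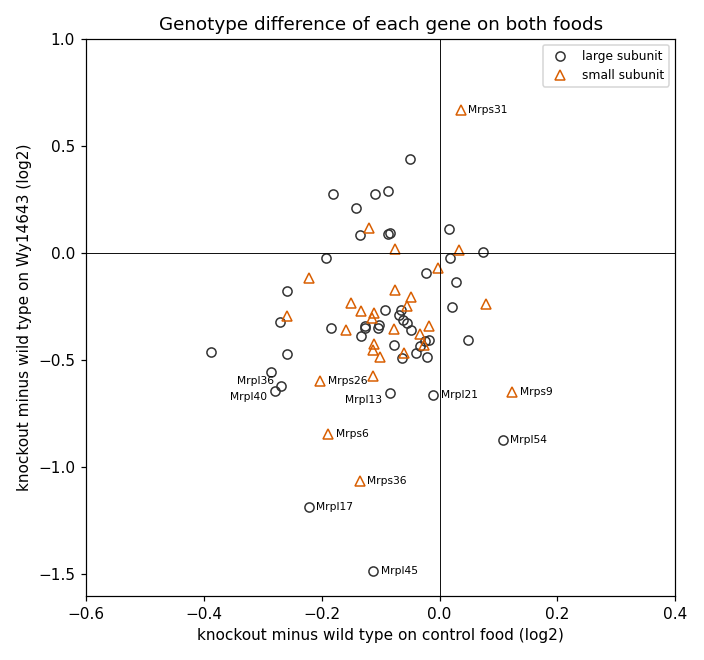
Log2 difference, knockout minus wild type, of each member on Wy14643 (vertical axis) against control food (horizontal axis), for large-subunit (circles) and small-subunit genes (triangles), n = 4 mice per group. The axes have different scales, and the 12 members called on Wy14643 are named. Points spread from -1.48 to 0.67 vertically and from -0.39 to 0.12 horizontally.

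In knockout liver no member of the family passed the test for a response to Wy14643. The median response was 0.03 (0.03 for the large and 0.01 for the small subunit), against 0.01 over all genes, and 47 members were positive and 29 negative. No member was called, where 0.0275% of all genes were called higher and 0% lower (0.0774% and 0% of those with a mean above 6). The lowest adjusted p was 0.453, for Mrpl41. At an unadjusted p under 0.05, 5.30% of all genes were higher and 5.04% lower (6.91% and 7.64% of those with a mean above 6). Of the members 4 were higher and 0 lower. Those 4 were Mrpl14 (0.33 ± 0.14), Mrpl41 (0.21 ± 0.08), Mrps18b (0.19 ± 0.08) and Mrps17 (0.18 ± 0.08), named after their values were seen. In 4 members all treated livers were above all controls and in 1 all were below. The same held for 3.68% and 2.70% of all genes (6.09% and 5.42% of those with a mean above 6). Across the 76 members the knockout and wild-type responses, which share no arrays, had a Pearson r of 0.04 and a Spearman rho of 0.05, given as a description over genes that share their livers. No gene of any pathway list was called in knockout.

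The difference of the responses, knockout minus wild type, was tested directly. Its median was -0.22 over the members, -0.22 for the large and -0.20 for the small subunit, against 0.04 over all genes. Of the members 7 were called lower and 1 higher, where 5.38% and 4.62% of all genes were (9.85% and 12.6% of those with a mean above 6). Mrpl45 responded by -0.01 ± 0.09 in knockout and 1.36 ± 0.09 in wild type, a difference of -1.37 ± 0.13 (adjusted p = 1.15e-06). Mrpl17 responded by 0.16 ± 0.08 in knockout and 1.13 ± 0.08 in wild type, a difference of -0.96 ± 0.11 (adjusted p = 7.68e-06). In knockout its livers read 9.20, 9.12, 9.07 and 9.17 on Wy14643, against 8.99, 9.0, 9.05 and 8.89 on control food, without overlap but with an adjusted p of 0.547. Mrpl54 had -0.98 ± 0.17 (adjusted p = 0.000635), Mrps36 -0.93 ± 0.14 (adjusted p = 0.00016), Mrps9 -0.77 ± 0.16 (adjusted p = 0.00277), Mrps6 -0.65 ± 0.13 (adjusted p = 0.00228) and Mrpl21 -0.65 ± 0.12 (adjusted p = 0.00153). Mrps31 responded by -0.04 ± 0.08 in knockout and -0.67 ± 0.08 in wild type, a difference of 0.63 ± 0.11 (adjusted p = 0.000646). With the mean of all probe sets, 5 of these 8 calls ended: Mrpl54 (-0.43, adjusted p = 0.00914), Mrps9 (-0.36, adjusted p = 0.0213), Mrpl21 (-0.29, adjusted p = 0.108), Mrpl17 (-0.27, adjusted p = 0.116) and Mrps31 (0.17, adjusted p = 0.363). Mrpl21 was also under the fold required with an offset of 16 before log2 (-0.57). At an adjusted p under 0.01 with no fold required, 9 members were lower and 2 higher. The same held for 5.71% and 4.99% of all genes (10.9% and 13.8% of those with a mean above 6). Among the members that did not pass that adjusted p were Mrpl55 (-0.43 ± 0.20, adjusted p = 0.203), Mrpl40 (-0.36 ± 0.11, adjusted p = 0.0479) and Mrpl36 (-0.35 ± 0.11, adjusted p = 0.0532).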

How the data were processed

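The deposited values were linear probe set intensities, which the authors made from the scanned arrays with GCRMA (version 2.20 in the submitters' processing notes), a background correction and summary that also scales the arrays to each other. That they are linear was read from the values, since array medians were 4.43 to 4.72 and maxima 18107 to 22364. Log2 was taken with no offset after 64 control probe sets were left out, and low values were not filtered. RNA amount and labelling are described differently in the labels and the methods. All 45037 probe sets were fitted with limma 3.58.1 in R 4.3.3 (lmFit, eBayes), with 1 mean for each of the 4 groups over 16 arrays and Benjamini-Hochberg adjustment over all probe sets, and the script was tested on simulated data. Annotation gave 34945 probe sets a single gene, 932 several and 9160 none. Depth has no counterpart on arrays, and the 4 mice per group limit the precision. The mice were separate animals, but litter and hybridization batch were not analysed here. Named were the called members with the largest differences (up to 10 per direction), the most positive and most negative wild-type responses without overlap, 10 members for their known roles, and up to 4 called genes of each pathway list. Members, lists and this rule were chosen with earlier results of these data known. Alternatives covered normalization, offset, filters on low values (mean log2 above 4 or 6), thresholds, array weights, variance trend, the arrays fitted, probe set choice, a replicate block and leaving out each array.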

Additional observations from a re-analysis of the deposited data

Results flagged for a closer look

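In some groups of 4 livers 1 value stood far from the other 3, by the ratio of its gap to the group's whole range. This was so in 10 of 108 groups examined, where chance gives about 1 in 20. For knockout on Wy14643 these were Mrpl45 in replicate 2 (6.02), Mrpl54 in replicate 4 (6.10, the lowest by far), Mrpl40 in replicate 1 (7.91), Mrpl23 in replicate 1 (8.97) and Mrpl39 in replicate 4 (10.01). For wild type on Wy14643 they were Mrpl13 in replicate 3 (9.21), Mrpl40 in replicate 2 (8.38) and Mrpl3 in replicate 2 (7.18), and for wild type on control food Mrpl40 in replicate 4 (7.94). The median small-subunit deviation of knockout on control food was lowest in replicate 4 (-0.22). All are log2 levels or deviations. The response to Wy14643 differed between knockout and wild type, by the test of the difference itself in limma, in Mrpl45 (-1.37), Mrpl54 (-0.98), Mrpl17 (-0.96), Mrps36 (-0.93), Mrps9 (-0.77), Mrps6 (-0.65), Mrpl21 (-0.65) and Mrps31 (0.63), all knockout response minus wild-type response. Outside the member rule, a probe set shared by Gm6238 and Mrpl30 was 0.35 higher on Wy14643 than on control food in wild type (limma, adjusted p = 0.00706), under the fold required.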

How the results depend on the processing

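No called difference of a named member changed direction under the alternatives run. At an adjusted p under 0.05 with no fold required, 45 members were called in the wild-type response, 52 between genotypes on Wy14643 and 21 for the difference of responses, against 7, 12 and 8. The share of all genes at that looser threshold was not counted, so these 3 counts have no background beside them. With the mean of all probe sets per gene, which adds dim probe sets, the counts were 3, 5 and 3, and the large and small subunit medians were 0.18 and 0.17, -0.25 and -0.24, and -0.18 and -0.14. Quantile normalization gave large-subunit medians of -0.30 between genotypes on Wy14643 and -0.17 for the difference of responses. Over the settings that leave out no array, the 27 calls of named members were kept in 245 refits and lost in 25, 16 of them under the mean of probe sets. An offset of 16 before log2 put Mrpl55 in wild type (0.54) and Mrps9 (-0.55), Mrpl21 (-0.58), Mrpl36 (-0.56) and Mrps26 (-0.54) between genotypes on Wy14643 under the fold required, as did quantile normalization for Mrpl36 (-0.58) and Mrps26 (-0.56) and array weights for Mrps26 (-0.57). Leaving out each array in turn gave 6 to 9 members called in the wild-type response, 11 to 15 between genotypes on Wy14643, 0 to 0 on control food, 0 to 0 for the knockout response and 8 to 9 for the difference of responses. The medians then ran, for the large and the small subunit, from 0.26 to 0.28 and 0.26 to 0.31 in the wild-type response, from -0.35 to -0.30 and -0.34 to -0.26 between genotypes on Wy14643, from -0.10 to -0.05 and -0.10 to -0.06 on control food, from 0.00 to 0.06 and -0.01 to 0.02 in the knockout response, and from -0.25 to -0.20 and -0.28 to -0.19 for the difference of responses. Of these refits 276 kept the named calls and 4 lost them, for Mrpl55, Mrps9 and Mrps26 as given above. A replicate block left the counts at 7, 12, 0, 0 and 8. Same-numbered mice did not deviate together (correlations from -0.14 to 0.20, 8 of 24 above 0.1), so the numbers were not taken as pairs. The groups of 4 mice, and levels near background for second probe sets, limit what these arrays resolve.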
